A study of Homo sapiens with 12 samples.

Results

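The clustered histone genes are the 59 genes whose footprint and mRNA values are described here. They were chosen by symbol, as H1-1 to H1-6 or as a member of the H2AC, H2BC, H3C or H4C series, with a ribosome footprint value above 0 in at least 1 library. The table held 19951 gene entries, of which 66 matched by symbol. Another 7 matching genes, H1-1, H1-6, H2AC1, H2BC1, H3C6, H4C6 and H4C7, had no footprint value above 0, and their highest mRNA value in any library was 2. The members comprised 4 H1, 15 H2A, 16 H2B, 12 H3 and 12 H4 genes. The cells were MonoMac6 (MM6), a human line established from a monocytic form of acute myeloid leukemia. They carried the control hairpin shNS or 1 of 2 hairpins, shBP2-1 and shBP2-2, directed at IGF2BP2, a protein that binds transcripts carrying the m6A mark. All groups had lentiviral transduction for 48 h and then puromycin for 2 days, and mRNA and ribosome profiling libraries were made in 2 replicates per group, 12 libraries in all. Per the labels, cells for ribosome profiling also had cycloheximide, which halts ribosomes on mRNA, for 15 min. The labels do not say whether replicates were separate cultures, so p-values measure the spread between these libraries, which may be technical.

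Histones package DNA. H2A, H2B, H3 and H4 form the nucleosome core, and H1 binds the linker DNA between nucleosomes. The clustered genes are the replication-dependent histone genes: they lie close together in the genome, are transcribed mainly in S phase, and have no introns in their usual histone transcripts. Those transcripts end in a conserved stem-loop bound by SLBP in place of a poly(A) tail. Many copies encode the same protein, which lets a cell in S phase make enough histone for the new DNA, and which also means that short reads can fit several genes equally well.

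The mRNA values summed to between 22685066 and 24854593 per library. Footprint libraries had totals of 4884067 and 4423843 with shNS, 504631 and 456338 with shBP2-1 and 1686279 and 2583384 with shBP2-2, so footprint values were divided by a median-ratio factor for each library before comparison. These are called rescaled footprint values, and a change in them says how a gene moved against the typical gene. IGF2BP2 mRNA was 2471 and 2357 with shNS, 477 and 507 with shBP2-1 and 698 and 772 with shBP2-2, a log2 change of -2.0 ± 0.09 (SE) for the mean of both hairpins (limma, adjusted p = 4.11e-07). All 8 monocytic AML markers were detected, and their summed mRNA value was 106309 to 108541 in shNS, 159563 to 160524 in shBP2-1 and 81664 to 82669 in shBP2-2. LYZ held most of that sum, and its log2 change was 0.71 with shBP2-1 and -0.32 with shBP2-2, while MPO had -0.57 and -1.75. Marker sums of other cell types were 1465 to 2134 for T and NK cells (2 of 4 markers detected), 18 to 31 for B cells (3 of 3), 0 to 7 for erythroid and megakaryocyte cells (2 of 4) and 37 to 64 for epithelial cells and fibroblasts (3 of 4). NKG7 held nearly all of the T and NK cell sum. CD2 had a value of 3 in shNS replicate 1 alone, and CD3D and CD3E were 0 in every library. In bulk cells, fewer cells in S phase and less histone RNA per cell cannot be told apart.

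The promoters show how alike the upstream sequences of some copies are. Transcript sequences were not compared. RefSeq promoters of GRCh38.p14 were found for 54 of the 59 members. Over the 300 bases from 250 before to 50 after the annotated start, identity was 97.4% between H3C14 and H3C15, 99.3% between H2AC18 and H2AC19, 98.3% between H4C11 and H4C12, and 100.0% between H4C14 and H4C15. H2AC17 and H2BC17, neighbours transcribed away from each other, had 48.9% over an alignment of 362 columns. Their windows mostly cover the same DNA read from opposite strands, so this value does not compare separate sequences. The 120 bases before each start of 3 pairs of copies and of that neighbouring pair are printed here, 5′ to 3′ on the gene's strand, because the results below turn on these genes. Capitals mark the TATA box letters TATAAA, the CCAAT letters (ATTGG on the opposite strand) and the octamer letters ATTTGCAT.
H3C14 (chr1:149841209-149841328, minus strand): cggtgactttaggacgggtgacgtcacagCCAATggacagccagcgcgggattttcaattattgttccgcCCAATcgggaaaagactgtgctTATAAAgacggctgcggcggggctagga
H3C15 (chr1:149852488-149852607, plus strand): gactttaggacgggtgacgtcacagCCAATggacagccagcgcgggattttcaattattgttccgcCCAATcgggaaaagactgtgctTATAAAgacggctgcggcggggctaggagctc
H2AC18 (chr1:149842751-149842870, minus strand): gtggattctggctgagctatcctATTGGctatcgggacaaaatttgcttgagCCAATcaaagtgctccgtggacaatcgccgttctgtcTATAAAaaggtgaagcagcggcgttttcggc
H2AC19 (chr1:149850941-149851060, plus strand): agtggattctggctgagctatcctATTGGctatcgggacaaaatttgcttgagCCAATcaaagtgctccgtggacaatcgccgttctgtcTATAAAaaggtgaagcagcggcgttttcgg
H4C11 (chr6:27823972-27824091, plus strand): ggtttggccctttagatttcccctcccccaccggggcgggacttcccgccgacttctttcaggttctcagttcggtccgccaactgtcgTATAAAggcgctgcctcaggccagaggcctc
H4C12 (chr6:27831561-27831680, minus strand): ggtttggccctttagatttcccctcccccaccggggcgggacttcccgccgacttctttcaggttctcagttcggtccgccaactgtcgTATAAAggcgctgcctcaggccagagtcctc
H2AC17 (chr6:27893186-27893305, minus strand): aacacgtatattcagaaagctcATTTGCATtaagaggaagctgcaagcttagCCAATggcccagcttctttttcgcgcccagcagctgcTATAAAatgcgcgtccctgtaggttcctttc
H2BC17 (chr6:27893305-27893424, plus strand): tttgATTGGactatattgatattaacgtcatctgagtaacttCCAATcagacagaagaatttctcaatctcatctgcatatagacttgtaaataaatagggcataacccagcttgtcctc

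Among the 54 members with a promoter entry, the letters TATAAA were found on either strand in 37, against 11.5% of all 35116 promoter entries. A member counted once if any of its entries held the letters, while the shares of all promoters count every entry. The CCAAT letters, bound in many promoters by the factor NF-Y, were in 46 of the 54 and in 34.6% of all promoters. Every H1, H2A, H2B and H3 member with an entry held them, and 2 of the 10 H4 members did. The letters ATTTGCAT are the octamer that Oct-1 binds in H2B promoters. They were found for 13 of 16 H2B members, 10 of 14 H2A members, 1 of 10 H3 members and none of the H1 and H4 members. Of all promoters, 1.77% held them. Letters at the ends of these motifs can overlap, and each motif was searched for on its own. Where windows of neighbouring genes overlap, as for H2AC17 and H2BC17, the same letters can count for both genes. A match describes the letters in the window and was not read as a site.

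In control cells, the clustered histone genes had many footprints and little mRNA. They held 1.74% and 1.61% of all footprint values in the shNS libraries but 0.0238% and 0.0244% of all mRNA values. Summed over the 59 members, the footprint value was 14.2 times the mRNA value as deposited. By class this factor was 126 for H3, 19.1 for H4, 17.7 for H1, 15.7 for H2A and 4.57 for H2B. Across all 9212 genes tested in both assays the median log2 ratio of footprints to mRNA in shNS was -2.66, with the 5th to 95th percentile from -4.80 to -1.01. The 35 members tested in both assays had a median of 4.57, from 0.21 for H2AC19 to 7.66 for H4C9. All 35 lay above the 95th percentile of all genes. H2BC6, with too few footprints to be tested, had mean shNS values of 1.5 for footprints and 9.5 for mRNA, a log2 ratio of -2.66. For comparison, 9 replication-independent histone genes, whose transcripts carry a poly(A) tail, had a median of -3.33, from -4.01 for H2AX to -1.73 for H2AZ1. The labels give polyA RNA as the molecule for the libraries of both assays and a stranded mRNA kit for the mRNA libraries, and the part of poly(A) selection in this ratio was not tested.

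**Figure D1:**
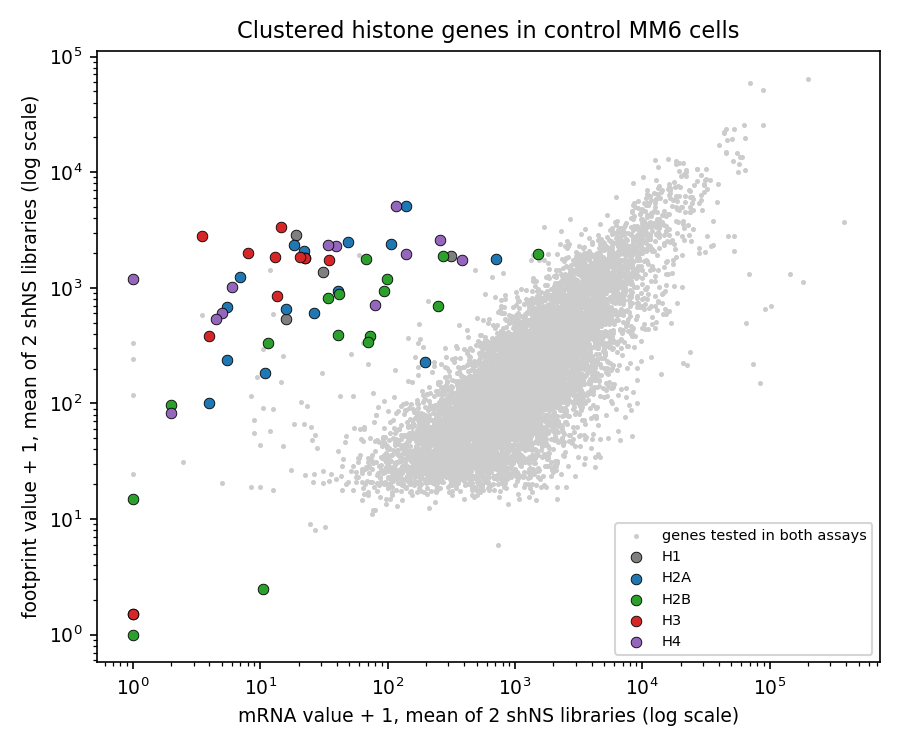
Footprint value + 1 against mRNA value + 1 in shNS cells, each the mean of 2 libraries as deposited, on log axes. Grey points are genes tested in both assays and coloured points the members by class. Most members lie above and to the left of the grey cloud, and all 35 members tested in both assays have more footprint value than mRNA value. H2BC6, not tested for footprints, has mean values of 1.5 for footprints and 9.5 for mRNA.

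H1-5, a linker histone, had deposited footprint values of 3123 and 2564 in shNS against mRNA values of 22 and 14. H1-2, another linker histone, had footprint values of 2115 and 1656 and mRNA values of 299 and 325. H1-2 thus held most of the class's mRNA, and H1-5 the largest part of its footprints. In the H2A class, H2AC18 had the highest footprint values, 5530 and 4712, and H2AC6 the highest mRNA values, 669 and 746. In the H2B class, H2BC12 had the highest mean of both, with footprint values of 2179 and 1750, which overlapped the 2250 and 1510 of H2BC5, and mRNA values of 1509 and 1504. The H3 gene with the highest footprint values, H3C2, had 3686 and 3033 with mRNA values of 6 and 21, and H3C13 had 2822 and 2776 with mRNA values of 4 and 1. The H4 genes reached footprint values of 5223 and 4966 for H4C8, with mRNA values of 118 and 114. These are values per gene, not per length.

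Per kilobase of gene span, and over the 52 members with a span under 1000 bases, median shNS footprint values were 3581 for H3, 3058 for H4, 2154 for H1, 1905 for H2A and 698 for H2B. Ranges within a class were far wider than the gaps between these medians. H4 members ran from 202 per kilobase for H4C4 to 12456 for H4C8, and H2A members from 210.1 for H2AC14 to 9608 for H2AC18. The other 7 members, H2BC12, H2BC5, H2BC18, H2BC4, H2BC21, H3C4 and H4C15, have RefSeq spans of 1000 bases or more, longer than a single histone exon. Their median shNS mRNA value was 138.5 against 18.75 for the 52 short genes. The smallest values belonged to H3C3 and H3C8, each with a footprint value of 1 in 1 library and 0 elsewhere, and to H2BC3, with a footprint value of 2 in 1 library.

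In the shBP2-1 libraries the clustered histone genes took a smaller share of all footprint values than in the other libraries. It was 1.19% and 1.21% in the shBP2-1 libraries and 1.72% and 1.60% in the shBP2-2 libraries, against 1.74% and 1.61% in shNS. The shBP2-1 values lay below the other 4, and those of shBP2-2 overlapped shNS. Rescaled class sums with shBP2-1 differed from shNS by -0.72 (log2) for H2B, -0.54 for H2A, -0.36 for H1, -0.35 for H4 and -0.28 for H3. The same sums with shBP2-2 differed by -0.01, 0.00, -0.05, 0.10 and 0.01. The shBP2-1 footprint libraries also had the lowest totals, given above, and the part of that in this result was not tested.

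**Figure D2:**
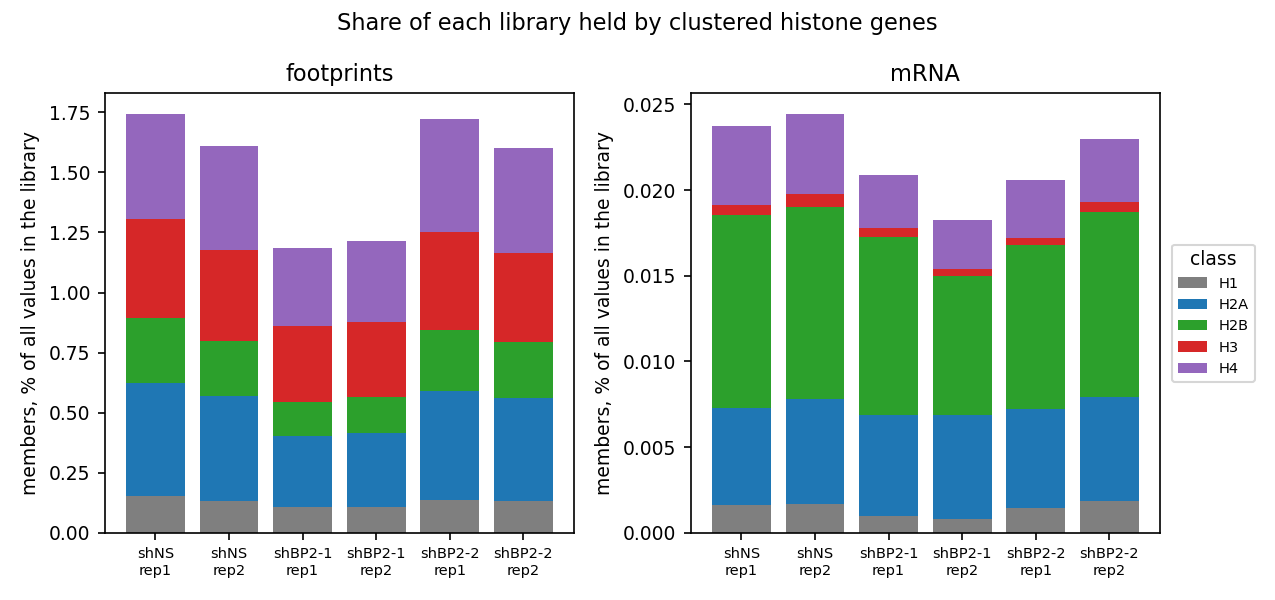
Summed value of the members as a percentage of all values in each library, stacked by histone class, for footprints (left) and mRNA (right). The 2 shBP2-1 footprint libraries stand at 1.19% and 1.21% and the other 4 between 1.60% and 1.74%. H3 takes a large part of the footprint bars and a thin part of the mRNA bars.

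Of the 59 members, 54 passed the minimum mean footprint value of 10 and were tested with limma voom. Between the hairpins, 15 of the 54 were lower with shBP2-1 than with shBP2-2 and none was higher (adjusted p under 0.05). Over all 9306 genes, 6.26% were called in that comparison, 3% lower and 3.27% higher. The difference had a median of -0.48 over the 54, against -0.01 over all genes, and was below 0 in 51 of them. The 3 above 0 were H3C13, H3C12 and H4C12. Those called were 5 H2A genes, 5 H2B genes, 2 H3 genes and 3 H4 genes. Both shBP2-1 libraries lay below both shNS libraries in 42 of the 54, as in 33.5% of all genes. For shBP2-2 this held for 14, against 27% of all genes, and another 15 had both libraries above shNS. For each hairpin against shNS, the members' median was -0.45 with shBP2-1 and 0.00 with shBP2-2.

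**Figure D3:**
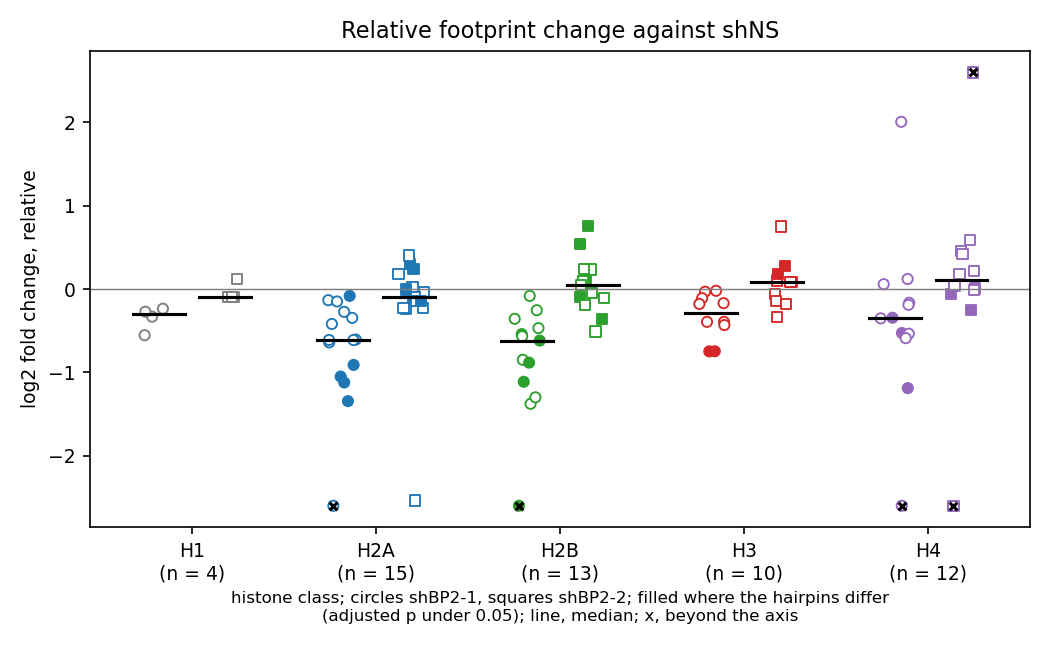
Relative log2 footprint change against shNS of the 54 tested members by class, for shBP2-1 (circles) and shBP2-2 (squares), with bars at the medians. Filled symbols are the 15 members whose hairpins differed, and crossed symbols lie beyond the axis. Medians of shBP2-1 are below 0 in all 5 classes and those of shBP2-2 are near 0.

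For the mean of both hairpins against shNS, 17 of the 54 members were lower and 1, H4C14, was higher. Of all genes 9.24% were called, 4.28% lower and 4.96% higher. The members' median was -0.22 against -0.01 for all genes, and 45 of the 54 were below 0. Those called lower were 7 H2A, 4 H2B, 4 H4, 1 H3 and 1 H1 gene. This count rested largely on shBP2-1. Without its 2 footprint libraries the contrast is shBP2-2 against shNS. In that contrast 5 members were lower and 6 higher of 55 tested, and 8.63% of all genes were called. Leaving out single libraries moved the number called to between 8, without shBP2-1 replicate 1, and 32, without shNS replicate 2, where 3.09% and 12.3% of all genes were called. Leaving out shBP2-1 replicate 2 gave 10 (3.19% of all genes), and leaving out shBP2-2 replicate 2 gave 11 (6.99%). For the difference between the hairpins, the count became 6 or 5 when a shBP2-1 library was left out (replicate 1 or 2), 10 when shBP2-2 replicate 1 was, and 32 or 31 when a shNS library was (replicate 1 or 2). The shares of all genes in those fits were 1.31%, 1.65%, 3.28%, 10.7% and 10%.

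H2AC17 had the smallest adjusted p in the class of H2A, the core histone whose surface carries the nucleosome's acidic patch. Its rescaled footprint values were 859 and 884 with shNS, 355 and 328 with shBP2-1 and 813 and 768 with shBP2-2. Both hairpins lay below shNS, and shBP2-1 far below shBP2-2. The mean of both hairpins differed from shNS by -0.75 ± 0.07 (log2, SE, adjusted p = 3.71e-05) and the hairpins from each other by -1.20 ± 0.12 (adjusted p = 8.11e-05). Both calls were also made when any 1 library was left out, and for the hairpin difference no other member's was.

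Of the same H2A protein group, H2AC11 had 896 and 796 with shNS, 575 and 529 with shBP2-1 and 760.0 and 699.6 with shBP2-2. All 4 knockdown libraries lay below shNS, and the mean change was -0.42 ± 0.08 (adjusted p = 0.00504). H2AC13, also of that group, had 730.5 and 734 with shNS, 656 and 678 with shBP2-1 and 720.2 and 712 with shBP2-2, and was not called (-0.08 ± 0.06, adjusted p = 0.389). H2AC16 had 241 and 220.2 with shNS, 137 and 85.6 with shBP2-1 and 290.5 and 279 with shBP2-2, so that the hairpins fell on opposite sides of shNS. They differed by -1.35 ± 0.22 (adjusted p = 0.00328, and 0.069 without shBP2-1 replicate 2). The 5 genes of the group therefore did not move alike.

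H2AC6, the H2A gene with the most mRNA, had rescaled footprint values of 687 and 563 with shNS, 278 and 294 with shBP2-1 and 576 and 555 with shBP2-2. The mean change was -0.63 ± 0.11 (adjusted p = 0.00322), and it passed without any 1 library. The hairpins differed by -0.98 ± 0.19 (adjusted p = 0.00880), which did not pass without either shBP2-1 library. H2AC12 had 881 and 776 with shNS, 408 and 477 with shBP2-1 and 863 and 798 with shBP2-2, with shBP2-2 inside the range of shNS. Its mean change was -0.46 ± 0.08 (adjusted p = 0.00493) and its hairpin difference -0.90 ± 0.14 (adjusted p = 0.00256), and neither passed without shBP2-1 replicate 1. H2AC18, the H2A gene with the highest footprint values, had 1848 and 1752 with shNS, 1616 and 1798 with shBP2-1 and 2173 and 2086 with shBP2-2. It was not called for the mean (0.08 ± 0.05, adjusted p = 0.332), and the hairpins differed by -0.32 ± 0.08 (adjusted p = 0.0263, lost without any 1 knockdown library). H2AC8 and H2AC21 were also called lower for the mean, with changes of -0.42 ± 0.10 and -0.29 ± 0.08 (adjusted p = 0.0259 and 0.0397). Both lost the call without either shBP2-1 library and without shBP2-2 replicate 2, and H2AC21 also without shBP2-2 replicate 1.

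In the H2B class, the histone that pairs with H2A in a dimer, H2BC18 had rescaled footprint values of 653 and 595 with shNS, 258 and 324 with shBP2-1 and 489 and 485 with shBP2-2. All 4 knockdown libraries were below shNS. The mean change was -0.74 ± 0.09 (adjusted p = 0.000261), called without any 1 library, and the hairpin difference was -0.75 ± 0.15 (adjusted p = 0.0105, and 0.21 without shBP2-1 replicate 1). H2BC12, the most abundant by deposited value, had 728 and 651 with shNS, 488 and 439 with shBP2-1 and 741 and 619 with shBP2-2. Its shBP2-1 libraries were low and its shBP2-2 libraries overlapped shNS, but neither comparison passed (mean -0.31 ± 0.09, adjusted p = 0.0509, and hairpin difference -0.52 ± 0.15, adjusted p = 0.0573).

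H2BC5 had 752 and 562 with shNS, 314 and 421 with shBP2-1 and 612 and 603 with shBP2-2, a mean change of -0.48 ± 0.13 (adjusted p = 0.0445). That call was kept only when shNS replicate 2 was the library left out. H2BC4 had 440.4 and 404 with shNS, 184 and 287 with shBP2-1 and 409.9 and 384 with shBP2-2, a mean change of -0.49 ± 0.10 (adjusted p = 0.0130, and 0.19 without shBP2-1 replicate 1). Its hairpins differed by -0.79 ± 0.18 (adjusted p = 0.0217), lost without shBP2-1 replicate 1 or either shBP2-2 library. H2BC7 had 375 and 244, 107 and 141, and 233 and 201 in the same order, a mean change of -0.90 ± 0.22 (adjusted p = 0.0239), lost without either shBP2-1 library or shBP2-2 replicate 2. In these 3 genes the shBP2-1 libraries were the lowest.

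H2BC21 went the other way with shBP2-2: it had 219 and 268 with shNS, 214 and 123 with shBP2-1 and 395 and 416 with shBP2-2. The hairpins differed by -1.29 ± 0.23 (adjusted p = 0.00605, and 0.082 without shBP2-1 replicate 2), and their mean did not differ from shNS by the test (0.11 ± 0.14, adjusted p = 0.673). H2BC14, a gene of low footprint values, had 32.4 and 35.0 with shNS, 6.69 and 0 with shBP2-1 and 57.7 and 43.5 with shBP2-2. Its hairpin difference of -3.64 ± 0.74 (adjusted p = 0.0118) rested on a deposited value of 2 and a 0 in shBP2-1, and was lost without shBP2-1 replicate 2. H2BC11 was the fifth H2B gene with a hairpin difference (-0.71 ± 0.17, adjusted p = 0.0249, lost without either shBP2-1 library or shBP2-2 replicate 1).

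H3 is the core histone whose tail carries many regulatory modifications, and 1 of its 10 tested genes was called for the mean. H3C2 was the H3 gene with the most footprints, at 1232 and 1128 with shNS, 859.7 and 889.7 with shBP2-1 and 1089 and 1011 with shBP2-2. All 4 knockdown libraries were below shNS, with a mean change of -0.30 ± 0.06 (adjusted p = 0.00924) that did not pass without either shBP2-1 library (adjusted p = 0.085 and 0.056). H3C13 had 943 and 1032 with shNS, 1030.3 and 893 with shBP2-1 and 849 and 730.1 with shBP2-2, with shBP2-1 overlapping shNS, and was not called (-0.19 ± 0.07, adjusted p = 0.128).

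H3C7 had 731 and 685 with shNS, 629 and 629 with shBP2-1 and 802 and 733 with shBP2-2 and was not called for the mean (-0.03 ± 0.07, adjusted p = 0.799). H3C12 had 757 and 539.6, 632 and 633, and 602 and 632, all knockdown libraries lying between the 2 shNS libraries. H3C10 differed between the hairpins, at 647 and 575 with shNS, 341 and 387 with shBP2-1 and 740.1 and 662 with shBP2-2 (-0.93 ± 0.15, adjusted p = 0.00265, and 0.063 without shBP2-1 replicate 1). H3C1 also differed between them (-1.02 ± 0.22, adjusted p = 0.0179), and lost the call without each shBP2-1 library.

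Among the H1 genes, H1-2 was called, with rescaled footprint values of 707 and 616 with shNS, 458 and 439 with shBP2-1 and 603 and 630.1 with shBP2-2. The mean change was -0.33 ± 0.08 (adjusted p = 0.0267), lost without either shBP2-1 library or shBP2-2 replicate 1. H1-5 had 1044 and 954 with shNS, 829.6 and 823 with shBP2-1 and 960.0 and 914 with shBP2-2 (-0.18 ± 0.06, adjusted p = 0.0781). H1-4 had 520.3 and 433 with shNS, 375 and 379.7 with shBP2-1 and 531 and 511 with shBP2-2, and H1-3 had 209 and 168, 154 and 164, and 194 and 164. In all 4 the shBP2-1 libraries were below both shNS libraries. The test of H1-3, H1-4 and H1-5 passed neither for the mean nor for the hairpin difference.

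H4 pairs with H3 in the core, and RefSeq lists the 12 H4 members under each other's names. H4C8, the copy with the highest footprint values, had rescaled values of 1745 and 1847 with shNS, 1382 and 1444 with shBP2-1 and 1739.9 and 1704 with shBP2-2. The shBP2-1 libraries were lowest, the mean change was -0.20 ± 0.05 (adjusted p = 0.0181), and the hairpin difference was -0.28 ± 0.08 (adjusted p = 0.0467), with both calls lost without either shBP2-1 library or shBP2-2 replicate 2, and the difference also without shBP2-2 replicate 1. H4C5 had 767 and 861 with shNS, 622 and 648 with shBP2-1 and 819 and 838 with shBP2-2 and was not called (-0.16 ± 0.07, adjusted p = 0.171). H4C3 had 605 and 629 with shNS, 388 and 473 with shBP2-1 and 619 and 619.7 with shBP2-2. Its mean change was -0.26 ± 0.07 (adjusted p = 0.0384) and its hairpin difference -0.53 ± 0.12 (adjusted p = 0.0180), and both were lost without any 1 knockdown library. H4C13 (0.35 ± 0.11, adjusted p = 0.0640), H4C1 (0.01 ± 0.13) and H4C2 (0.01 ± 0.08) were above 0 for the mean and were not called.

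H4C14 and H4C15 are copies on chromosome 1 whose promoter windows were identical. Their summed footprint value, rescaled, differed from shNS by -0.36 (log2) with shBP2-1 and 0.21 with shBP2-2, and the copies taken alone went apart. H4C15 had 689 and 699 with shNS, 361 and 249 with shBP2-1 and 569 and 590.4 with shBP2-2 (mean -0.72 ± 0.08, adjusted p = 0.000261, called without any 1 library), and its hairpins differed by -0.93 ± 0.15 (adjusted p = 0.00265, and 0.069 without shBP2-1 replicate 2). H4C14 had 908 and 916 with shNS, 923 and 975 with shBP2-1 and 1399 and 1154 with shBP2-2 (mean 0.26 ± 0.07, adjusted p = 0.0435). All knockdown libraries were below shNS for H4C15 and above it for H4C14. Among the fits that left out 1 library, the call of H4C14 was kept only without shBP2-2 replicate 2. It was also lost with total scaling (adjusted p = 0.0802), the trend test (adjusted p = 0.0872) and no minimum (adjusted p = 0.0614), and the summed H4 copies went the other way, as given below.

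Values of copies that share sequence have to be read together. H4C11 and H4C12 exchanged footprint values between libraries of the same group. As deposited, H4C11 had 1412 and 0 with shNS, 249 and 0 with shBP2-1 and 1294 and 1587 with shBP2-2. H4C12 had 2104 and 2627, 0 and 226, and 0 and 23 in the same libraries. Their sum was 3516 and 2627 with shNS, 249 and 226 with shBP2-1 and 1294 and 1610 with shBP2-2, which rescaled differed from shNS by -0.36 (log2) with shBP2-1 and 0.12 with shBP2-2. H4C12 taken alone was called lower for the mean (adjusted p = 0.0174, and 0.065 without shBP2-2 replicate 2), with no fold given because of its zeros. H4C11 taken alone was not called (adjusted p = 0.258).

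The pair H2AC18 and H2AC19 was split differently in the 2 assays. In footprints, H2AC18 held 94.95% and 96.6% of the pair in shNS and 99.3% to 100% in the knockdown libraries. H2AC19 had deposited footprint values of 294 and 164 with shNS, 0 and 0 with shBP2-1 and 10 and 24 with shBP2-2, and was called lower (adjusted p = 0.000761, and called without any 1 library). In mRNA, H2AC18 had values of 63 and 215 in shNS, 101 and 4 in shBP2-1, and was listed at 0 in both shBP2-2 libraries, while H2AC19 had 277 and 118, 142 and 234, and 246 and 331. The low value of one copy thus coincided with a high value of the other. The pair's mRNA sum was 340 and 333 with shNS, 243 and 238 with shBP2-1 and 246 and 331 with shBP2-2.

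In mRNA, H4C14 had 352 and 160 with shNS, 163 and 91 with shBP2-1 and 43 and 183 with shBP2-2, and was called lower (-1.18 ± 0.47, adjusted p = 0.0495, and 0.37 without shNS replicate 1). H4C15 had 46 and 231, 152 and 224, and 268 and 158 and was not called (0.91 ± 0.47, adjusted p = 0.115). The sum of this pair was 398 and 391 with shNS, 315 and 315 with shBP2-1 and 311 and 341 with shBP2-2, steadier within each group than either copy. H3C14 and H3C15 had the same deposited value as each other in all 12 libraries, so they give 1 measurement. The submitters' processing notes name RSEM, a tool that shares reads fitting several transcripts among them by estimate, and its part in these shifts was not tested.

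**Figure D4:**
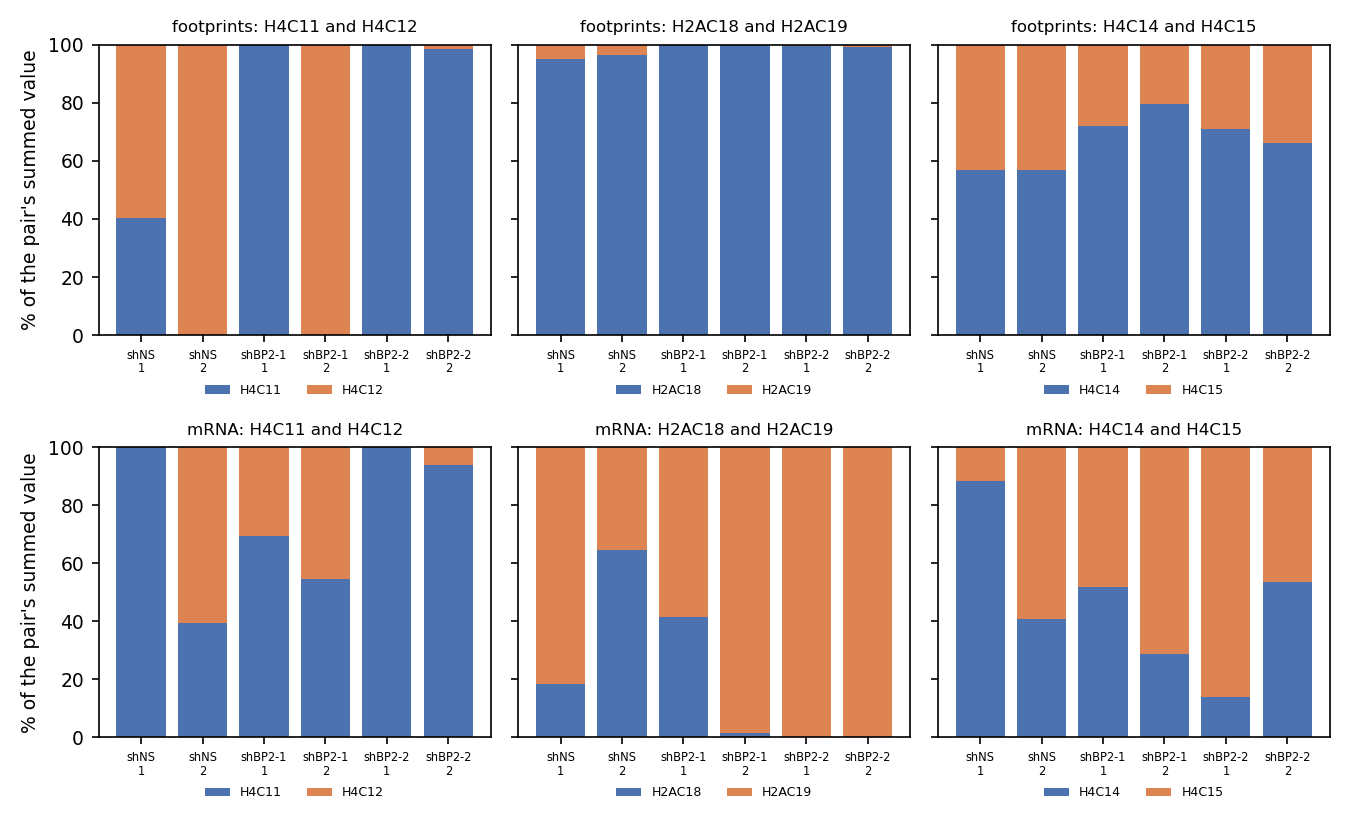
Share of a pair's summed value held by each of 2 near-identical copies, in percent, for footprints (top) and mRNA (bottom) in the 6 libraries of each assay, named by hairpin and replicate. H4C11 goes from 0% to 100% of its pair between the 2 shBP2-1 footprint libraries, and H2AC18 from 18.5% to 64.6% of its pair between the 2 shNS mRNA libraries.

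Copies were therefore also summed by shared protein, where RefSeq lists the genes under each other's names, and tested as 1 entry. The 12 H4 genes had summed footprint values of 21205 and 19206 with shNS, 1639 and 1531 with shBP2-1 and 7944 and 11237 with shBP2-2 as deposited. Their relative change was -0.13 ± 0.03 for the mean (adjusted p = 0.0245) and -0.43 ± 0.06 between the hairpins (adjusted p = 0.000494). The 5 H2A genes H2AC11, H2AC13, H2AC15, H2AC16 and H2AC17 fell by 0.38 ± 0.04 (adjusted p = 0.000169), with a hairpin difference of -0.58 ± 0.07 (adjusted p = 0.000382). The 5 H2B genes H2BC4, H2BC6, H2BC7, H2BC8 and H2BC10 fell by 0.59 ± 0.13 (adjusted p = 0.0130), with a hairpin difference of -0.85 ± 0.22 (adjusted p = 0.0390). These 3 groups passed both tests, with larger changes under shBP2-1 than under shBP2-2. Against shNS, the H4 sum changed by -0.35 with shBP2-1 and 0.08 with shBP2-2, on opposite sides of shNS. The H2A group changed by -0.67 with shBP2-1 and -0.09 with shBP2-2, and the H2B group by -1.02 and -0.17.

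Not all groups did. The 9 H3 genes of the H3.1 protein did not pass for the mean (-0.13 ± 0.05, adjusted p = 0.108) but differed between the hairpins (-0.35 ± 0.08, adjusted p = 0.0223). The H3.2 genes H3C13, H3C14 and H3C15 passed neither (mean -0.16 ± 0.05, adjusted p = 0.0824). H2AC18 and H2AC19 together did not change for the mean by the test (0.02 ± 0.05, adjusted p = 0.848), in contrast to H2AC19 alone, and differed between the hairpins (-0.33 ± 0.08, adjusted p = 0.0270). H2AC4 and H2AC8 together passed for the mean (-0.30 ± 0.09, adjusted p = 0.0475), with changes of -0.57 with shBP2-1 and -0.04 with shBP2-2.

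In mRNA, the members moved in both directions. Of 36 members with a mean mRNA value of at least 10, 9 were lower and 4 higher for the mean of both hairpins (limma, adjusted p under 0.05). Of all 12203 genes, 58.4% were called, 30.1% lower and 28.4% higher. The members' median change was -0.25 with 26 of 36 below 0, and that of all genes was -0.02. Both shBP2-1 libraries were below both shNS libraries in 19 of the 36 (38% of all genes) and both shBP2-2 libraries in 12 (43.4%). Deposited class sums differed from shNS by -0.77 (log2) for H1, 0.11 for H2A, -0.19 for H2B, -0.50 for H3 and -0.55 for H4 with shBP2-1, and by 0.04, 0.04, -0.11, -0.30 and -0.37 with shBP2-2. Without shNS replicate 1, 7 members in all were called, and 24.3% of all genes. In a fit over all 12 libraries 3 members were called, and 0.729% of all genes.

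**Figure D5:**
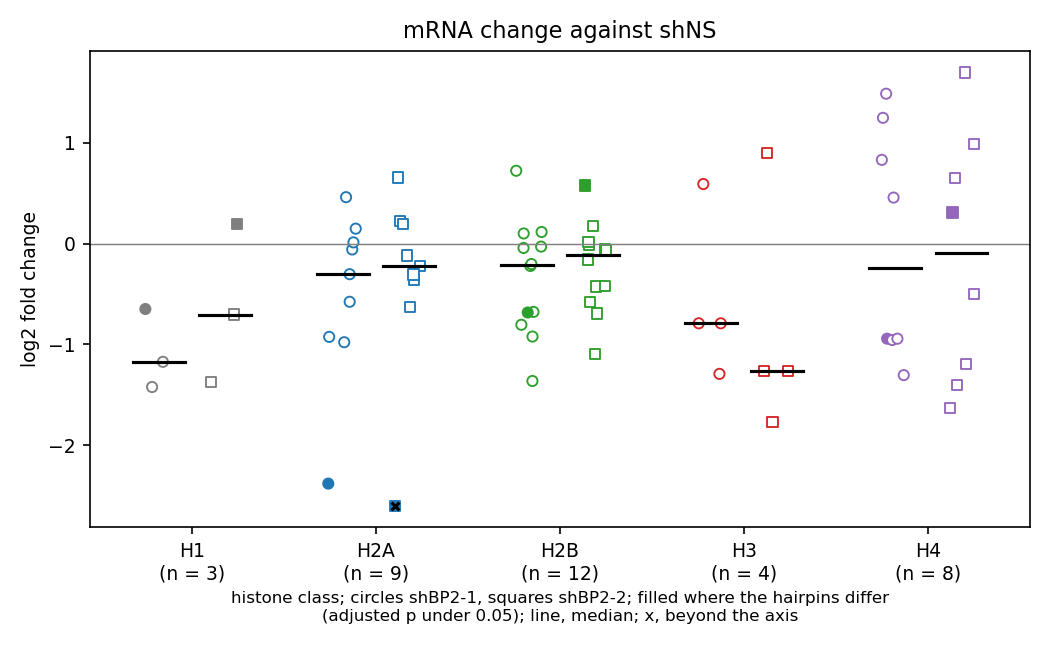
log2 mRNA change against shNS of the 36 tested members by class for shBP2-1 (circles) and shBP2-2 (squares), with bars at the medians. Filled symbols are the 4 members whose hairpins differed, and the crossed symbol lies beyond the axis. H4 members lie on both sides of 0 under both hairpins.

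H4C3 had the smallest adjusted p, with mRNA values of 371 and 401 with shNS, 174 and 139 with shBP2-1 and 160 and 177 with shBP2-2. Every knockdown library was below shNS, and the change was -1.25 ± 0.13 (adjusted p = 0.000139). H4C8 went the other way, with 118 and 114 with shNS, 154 and 165 with shBP2-1 and 191 and 174 with shBP2-2 (0.55 ± 0.13, adjusted p = 0.00459). H4C9 had 7 and 3 with shNS, 11 and 14 with shBP2-1 and 20 and 15 with shBP2-2 (1.47 ± 0.45, adjusted p = 0.0161, and 0.099 without shNS replicate 2). H4C3 and H4C8 were thus called in opposite directions. The summed H4 mRNA was 1054 and 1067 with shNS, 741 and 711 with shBP2-1 and 794 and 852 with shBP2-2. That sum fell by 0.46 ± 0.09 (adjusted p = 0.00155).

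H2AC6 mRNA was 669 and 746 with shNS, 914 and 1033 with shBP2-1 and 861 and 790 with shBP2-2, and rose by 0.34 ± 0.10 (adjusted p = 0.0113, and 0.18 without shNS replicate 1). Its footprints had gone the other way. H2AC11 mRNA, which ranked behind H2AC6 and H2AC19 in the class, was 105 and 107 with shNS, 116 and 119 with shBP2-1 and 132 and 112 with shBP2-2, and was not called (0.17 ± 0.15, adjusted p = 0.326). H2AC18 was called lower (adjusted p = 0.00207) with the zeros given above.

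In the H2B class, H2BC13 had 37 and 42 with shNS, 12 and 18 with shBP2-1 and 16 and 20 with shBP2-2, and fell by 1.23 ± 0.30 (adjusted p = 0.00568). H2BC18 had 61 and 72 with shNS, 35 and 34 with shBP2-1 and 65 and 37 with shBP2-2 (-0.67 ± 0.25, adjusted p = 0.0354, lost without either shNS library or shBP2-2 replicate 2). H2BC12, which held most of the H2B mRNA, had 1509 and 1504 with shNS, 1484 and 1153 with shBP2-1 and 1220 and 1492 with shBP2-2. Its knockdown libraries lay just below or well below shNS, and it was not called (-0.18 ± 0.12, adjusted p = 0.194). H2BC5, at 279 and 266 with shNS, 297 and 235 with shBP2-1 and 261 and 264 with shBP2-2, and H2BC21, at 243 and 256, 258 and 231, and 254 and 239, were not called either. H2BC9 differed between the hairpins, with 73 and 65 with shNS, 43 and 42 with shBP2-1 and 118 and 90 with shBP2-2 (-1.26 ± 0.22, adjusted p = 0.00193).

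All 4 tested H3 entries were called, at low values. H3C11 had 20 and 19 with shNS, 9 and 6 with shBP2-1 and 8 and 3 with shBP2-2 (-1.53 ± 0.48, adjusted p = 0.0184). It passed the minimum of 10 only through shNS, with means of 19.5 with shNS, 7.5 with shBP2-1 and 5.5 with shBP2-2. H3C14 and H3C15, which give 1 measurement, had 22 and 21 with shNS, 12 and 12 with shBP2-1 and 7 and 10 with shBP2-2 (-1.03 ± 0.37, adjusted p = 0.0321, lost without either shNS library, shBP2-1 replicate 2 or shBP2-2 replicate 1). H3C10 had 22 and 46 with shNS, 47 and 50 with shBP2-1 and 56 and 65 with shBP2-2 (0.74 ± 0.28, adjusted p = 0.0379, and 0.51 without shNS replicate 1). H3C11 and H3C14 were low in every knockdown library, and the call of H3C10 was lost without shNS replicate 1 and also without shBP2-1 replicate 2 (adjusted p = 0.054). Summed copies of H3.2 fell by 1.02 ± 0.26 (adjusted p = 0.00626), and those of H3.1, which hold H3C10 and H3C11, were not called (-0.18 ± 0.20, adjusted p = 0.464).

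H1-4 mRNA was 30 and 30 with shNS, 20 and 8 with shBP2-1 and 7 and 17 with shBP2-2, and fell by 1.27 ± 0.45 (adjusted p = 0.0293, lost without either shNS library or shBP2-1 replicate 2). H1-2 mRNA was 299 and 325 with shNS, 205 and 192 with shBP2-1 and 319 and 399 with shBP2-2. It was low with shBP2-1 alone, and the hairpins differed by -0.84 ± 0.14 (adjusted p = 0.00175). H1-5 mRNA was 22 and 14 with shNS, 7 and 5 with shBP2-1 and 9 and 12 with shBP2-2 (-1.06 ± 0.43, adjusted p = 0.0501). Between the hairpins, 3 of 36 members were lower with shBP2-1 (H1-2, H2BC9 and H4C11) and 1 was higher (H2AC18), against 9.93% and 14.5% of all genes, 24.4% in all. The count of members that differed rose when shBP2-2 replicate 2 was left out, which left 1 library in that group. H4C11 had mRNA values of 115 and 43 with shNS, 45 and 29 with shBP2-1 and 84 and 91 with shBP2-2 (-1.25 ± 0.38, adjusted p = 0.0344, and 0.091 without shBP2-1 replicate 2).

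Translational efficiency, the footprint change minus the mRNA change, was tested in 35 members over all 12 libraries. For the mean of both hairpins 6 members were higher and 7 lower (limma voom, adjusted p under 0.05), against 13.2% and 15.6% of all 9216 genes, 28.8% in all, with a median of -0.07 beside -0.04. H4C3 was higher (0.97 ± 0.15, adjusted p = 0.000831), and H4C8 (-0.77 ± 0.17, adjusted p = 0.00418) and H2AC6 (-0.99 ± 0.16, adjusted p = 0.000916) were lower, each also without any 1 library. H1-4, H2BC13, H3C11, H4C14 and H2AC18 were also higher, and H2AC11, H2AC19, H3C10, H4C9 and H4C15 also lower. Among these last 10, only H2AC18 and H2AC19, which are the copies that exchanged values, were called without any 1 library. The count of members called fell when shNS mRNA replicate 1 was left out, which left 1 library in that group. H3C11 passed the mRNA minimum only through shNS, and H4C9 only through the knockdown libraries, as given above.

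For copies summed, the efficiency of the H4 group was higher (0.31 ± 0.10, adjusted p = 0.0225), as was that of H3.2 (0.87 ± 0.28, adjusted p = 0.0291). That of the H2AC11 group (-0.22 ± 0.15, adjusted p = 0.257) and of H3.1 (0.04 ± 0.22, adjusted p = 0.914) was not called. H4C8 and H4C9 taken alone were lower and the H4 sum higher. Between the hairpins, H2AC6 was the 1 member called (-1.17 ± 0.24, adjusted p = 0.0233, and 0.069 without shBP2-1 footprint replicate 1), and it was lower with shBP2-1. Of all genes 0.868% were called there, 0.597% lower and 0.271% higher. The count of members called there rose when shBP2-1 mRNA replicate 2 was left out, which left 1 library in that group.

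The genes lie in 3 stretches of GRCh38.p14, by RefSeq. The first, on chromosome 1 from 149782689 to 149887965, held 11 members tested for footprints, with a median relative change of -0.39 for shBP2-1 and 0.03 for shBP2-2. The second, on chromosome 6 from 26020451 to 26285534, held 22, with medians of -0.48 and 0.02. The third, on chromosome 6 from 27132316 to 27893891, held 21, with medians of -0.47 and -0.01. The lower shBP2-1 medians were thus found in all 3 stretches. Members called lower for the mean numbered 4, 9 and 4.

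H2AC17 and H2BC17 are the neighbours whose promoters are printed above and lie at the end of the third stretch. H2BC17 had rescaled footprint values of 303 and 271 with shNS, 258 and 189.9 with shBP2-1 and 362 and 325 with shBP2-2 (-0.06 ± 0.11, adjusted p = 0.781). H2AC17 had shBP2-2 libraries below shNS, and H2BC17 had them above.

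Genes that serve histone supply were compared by list. Of the replication-independent histone genes, which are expressed outside S phase too, 9 of 12 were tested for footprints, 2 were higher and 1 was lower for the mean, and their median was 0.18. H2AX, the variant phosphorylated at DNA breaks, rose by 0.84 ± 0.17 (adjusted p = 0.00998), H3-3B rose by 0.30 ± 0.06 (adjusted p = 0.00808), and H2AZ1 fell by 0.23 ± 0.05 (adjusted p = 0.0138). H3-3A, which encodes the same H3.3 protein as H3-3B, was not called for the mean but differed between the hairpins by -1.15 ± 0.15 (adjusted p = 0.000718). In mRNA, 5 of the 10 tested genes of this list were lower and 1 higher, beside 30.1% and 28.4% of all genes. All-gene shares for the footprint counts of this and the next lists are 4.28% lower and 4.96% higher for the mean.

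Of the genes for histone transcription and 3′ end processing, 1 of 12 tested was lower in footprints and none higher, and in mRNA 6 of 14 were higher and 4 lower, beside 28.4% and 30.1% of all genes. SLBP, the stem-loop binding protein, had mRNA values of 3999 and 4078 with shNS, 3424 and 3803 with shBP2-1 and 4890 and 4860 with shBP2-2. It was low with shBP2-1 and high with shBP2-2, with a hairpin difference of -0.43 ± 0.09 (adjusted p = 0.00527) and footprints not called (mean -0.29 ± 0.10, adjusted p = 0.0965). NPAT, the cyclin E-CDK2 substrate that activates histone transcription, had mRNA values of 1145 and 1271 with shNS, 1238 and 1380 with shBP2-1 and 1851 and 1686 with shBP2-2, and rose by 0.33 ± 0.09 (adjusted p = 0.00935). CASP8AP2, a partner of NPAT in the histone locus body, fell in footprints by 0.52 ± 0.15 (adjusted p = 0.0441) and rose in mRNA by 0.55 ± 0.10 (adjusted p = 0.00117).

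Of the histone chaperones and assembly factors, 1 of 15 was lower in footprints, SUPT16H of the FACT complex, with a mean change of -0.59 ± 0.05 (adjusted p = 3.71e-05). Its footprint change was 0.03 with shBP2-1 and -1.21 with shBP2-2, a hairpin difference of 1.24 ± 0.09 (adjusted p = 4.13e-06). In mRNA 6 of the 15 were higher and 7 lower, beside 28.4% and 30.1% of all genes. Of 18 S-phase genes, 1 was higher in footprints for the mean, the helicase subunit MCM7 (0.20 ± 0.05, adjusted p = 0.0285), and 4 were lower. Among the lower were MCM6 (-0.24 ± 0.05, adjusted p = 0.0138), the ribonucleotide reductase subunit RRM2 (-0.32 ± 0.07, adjusted p = 0.0109) and the cyclin CCNE2 (-0.82 ± 0.22, adjusted p = 0.0384). After rescaling, MCM6, RRM2 and CCNE2 lay below both shNS libraries with shBP2-1 alone, and MCM7 lay above both with either hairpin. The median of the S-phase genes was 0.00 for the mean and -0.15 for the difference between the hairpins, where 3 of 18 were lower with shBP2-1 and none higher, beside 3% and 3.27% of all genes. Their mRNA was lower in 6 and higher in 2 of 18, beside 30.1% and 28.4% of all genes.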

How the data were processed

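Values were the authors' deposited score, a read count per gene, normalized in a way not given in the sources used here, then rounded to whole numbers. The submitters' processing notes name FastQC, cutadapt, Bowtie, STAR, RSEM and hg38. The values were not counts, so no count model or counting interval was used.

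Genes with a mean of at least 10 were tested two-sided with limma 3.58.1 in R 4.3.3: mRNA by limma-trend on log2(value + 1) as deposited, footprints by voom after median-ratio rescaling, and translational efficiency as an interaction over 12 libraries. Residual degrees of freedom were 3, 3 and 6. Benjamini-Hochberg adjustment ran over all genes tested. Errors are SE, n = 2 per group. Both hairpins share the shNS libraries. Each fit was checked on simulated data with large changes in genes of high value. That check did not cover small changes, genes of low value or values exchanged between copies.

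RefSeq protein sequences were not used here, so copies were grouped where RefSeq lists genes under each other's names. The text names, per class, the 4 members highest in footprints and 3 in mRNA, those called, and up to 4 genes per list. Members, lists and tests were chosen with earlier results of these data known. Alternatives covered pseudocount, minimum, scaling, fit, replicate block, summed copies and left-out libraries.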

Additional observations from a re-analysis of the deposited data

Results flagged for a closer look

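Effects of the 2 hairpins under the same contrast differed by the test of the difference itself in 3 counts. In footprints 15 of 54 members differed between shBP2-1 and shBP2-2, all lower with shBP2-1, beside 6.26% of all genes, with footprint totals of 504631 and 456338 in shBP2-1 against 1686279 and 2583384 in shBP2-2. In mRNA 4 of 36 members differed, H1-2, H2BC9, H4C11 and H2AC18, beside 24.4% of all genes. In translational efficiency 1 of 35 members differed, H2AC6, beside 0.868% of all genes.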

How the results depend on the processing

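Counts of members called are given in the order mean of both hairpins, then hairpin difference. For mRNA (main 13 and 4), 1 trend fit over all 12 libraries gave 3 and 1, beside 0.729% and 1.46% of all genes. Summed copies gave 22 (1 higher, 21 lower) and 2, beside 58.5% and 24.5% of all genes. In that fit the result of a group, such as the H4 sum, counts once for each copy. No minimum gave 2 for the difference, beside 11% of all genes. For footprints (18 and 15), the trend test after rescaling gave 10 and 39, when 4.73% and 19.9% of all genes were called. Deposited scaling gave 54 and 54, when 99.5% and 96.5% of all genes were called. Summed copies gave 31 and 40, when 9.37% and 6.38% of all genes were called. There, too, the result of a group counts once for each of its copies, so these counts repeat the same tests. Without both shBP2-1 libraries, a choice made after seeing the data, the contrast of shBP2-2 against shNS gave 11, beside 8.63% of all genes. For translational efficiency (13 and 1), the difference gave 3 with the trend test and 2 with no minimum and with summed copies. The shares of all genes in those fits were 5.09%, 0.593% and 0.891%. Same-numbered mRNA replicates did not vary in the same direction. Over 3909 genes the correlation of their deviations was -0.89 between shBP2-1 and shBP2-2. It was 0.37 between shBP2-1 and shNS and -0.37 between shBP2-2 and shNS. The mRNA libraries thus shared variation between replicates, with the order crossed for shBP2-2, and the main fits held no term for it. The replicate block gave 13 and 5 for mRNA, 23 and 35 for footprints, and 13 and 2 for translational efficiency. The shares of all genes were 51.2% and 17.9%, 12.1% and 11.7%, and 23.5% and 0.987%. Crossed pairing, added after seeing the data and run for the mRNA difference alone, gave 8, beside 43.5% of all genes.

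Leaving out 1 library gave 7 to 17 and 4 to 7 for mRNA, 8 to 32 and 5 to 32 for footprints, and 6 to 15 and 1 to 3 for translational efficiency. Class sums of footprints (log2, both hairpins over shNS, as deposited) ran from -2.63 to -2.28 for H1, -2.66 to -2.39 for H2A, -2.81 to -2.43 for H2B, -2.53 to -2.25 for H3 and -2.51 to -2.26 for H4. Rescaled, they were -0.20, -0.27, -0.36, -0.13 and -0.13. Those of mRNA ran from -0.45 to -0.28, 0.01 to 0.13, -0.23 to -0.08, -0.57 to -0.23 and -0.48 to -0.43. The median log2 ratio of footprints to mRNA in shNS ran from 4.39 to 4.86 and was 3.07 after rescaling, where the factors are set within each assay.

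Signs turned under summed copies, since a copy then takes its group's value: for the mean in mRNA, H4C8, H4C9 and H4C15 to -0.46, H2AC19 to -0.36 and H3C10 to -0.18; in footprints, H4C1, H4C2, H4C11, H4C13 and H4C14 to -0.13 and H2AC19 to 0.019; in translational efficiency, H4C8, H4C9, H4C12 and H4C15 to 0.31, H2AC19 to 0.37 and H3C10 to 0.036. For the hairpin difference, H2AC18 mRNA turned to -0.25 and footprints of H3C12 to -0.35 and H4C12 to -0.43. Deposited scaling turned the mean of H2BC13 to -2.21, H2BC21 to -2.16, H2AC18 to -2.17, H3C4 to -1.93, H4C1 to -2.23, H4C2 to -2.24, H4C13 to -1.89 and H4C14 to -1.99, and the difference of H3C12 to -2.09 and H3C13 to -1.84, since totals differed between groups. The H4C12 mRNA change was -0.07, and was 2.96 without shNS replicate 2 and -3.11 without shNS replicate 1. H4C12 mRNA was 0 in shNS replicate 1 and 66 in shNS replicate 2, where H4C11 had 115 and 43. Each of these fits thus had 1 of the H4C12 values as its only control. The H3C12 footprint change was 0.22 without shNS replicate 1. Why the shNS replicates differed was not tested. Against the main fits, 2986 single values were called in neither fit, or in both with the same sign. Another 273 newly passed, 149 no longer passed, and 32 changed sign with a call in at least 1 of the fits. Sign changes among values called in neither fit were not counted. Each group had 2 libraries, and the deposited values give no counts, so depth per gene is unknown.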
